A study of Homo sapiens with 4 samples.

Results

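ARID1A and 9 other subunit genes of the SWI/SNF (BAF) chromatin remodelling complex were followed in HEC-1-A and RL-95-2 cells, 2 lines derived from human endometrial cancers. The members were taken by symbol from the deposited gene tables: ARID1A, ARID1B, ARID2, SMARCA2, SMARCA4, SMARCB1, SMARCC1, SMARCC2, SMARCD1 and SMARCE1, which are 10 of 22494 features. All 10 were found, and all 10 passed the filter on low counts. Each line had received either a synthetic copy (mimic) of the transfer RNA fragment tRF-20-S998LO9D or the negative control for such mimics, and each of these 4 groups was 1 library of poly(A) RNA. Every group thus carries a transfected RNA, and no untransfected library was analysed here. The extraction notes speak of tissues where the other labels name cell lines. The labels give neither the dose, the time after transfection nor the ARID1A genotype of either line.

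SWI/SNF complexes use the energy of ATP to slide or evict nucleosomes and so open enhancers and promoters. Each complex is built around 1 of a pair of ATPases, SMARCA4 (BRG1) or SMARCA2 (BRM). In canonical BAF and PBAF the ATPase is held on a shared core of SMARCB1, SMARCC1, SMARCC2, SMARCD and SMARCE1 subunits. An ARID subunit tells these types apart: ARID1A or ARID1B, which exclude each other, for canonical BAF, and ARID2 for PBAF. ARID1A is among the genes most often inactivated in endometrial cancer.

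The counts behind each member ranged from 1532 to 13618 per library, from library totals of 33575882 to 46220053. All 9 epithelial markers, such as EPCAM and KRT8, were at 1 CPM (read counts scaled to a common library size) or more in each library. The 7 stromal markers summed to 6.4 to 11.1 CPM in HEC-1-A and 58.9 to 81.2 CPM in RL-95-2, where COL1A1 gave most of it, with 3 or 4 of the 7 at 0 counts in each library. The 5 endothelial markers summed to 0 to 0.29 CPM in HEC-1-A and 18.4 to 34 CPM in RL-95-2, all but a trace of it from CDH5 and ERG. CDH5 had 14 and 24.5 CPM and ERG 4.18 and 9.31 CPM in the RL-95-2 control and mimic library, while PECAM1 and KDR had 0 counts there. The 6 blood markers summed to at most 1.1 CPM. The part of these genes in the differences between the lines was not tested. A lower level can be less RNA per cell or fewer cells with the RNA, which bulk libraries cannot tell apart.

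Per length of transcript, in FPKM (fragments per kilobase of transcript, scaled to library size), SMARCC1, a scaffold subunit, was the highest member in the HEC-1-A control (46 FPKM), the HEC-1-A mimic (40.5 FPKM) and the RL-95-2 control library (35.1 FPKM). In the RL-95-2 mimic library SMARCB1, the core subunit lost in rhabdoid tumours, came first at 53 FPKM and SMARCC1 was at rank 4 with 31.8 FPKM. The bottom of the order differed between the lines. ARID2 was lowest in HEC-1-A, at 4.84 and 4.1 FPKM in the control and mimic library. ARID1A was lowest in RL-95-2, at 11.3 and 9.17 FPKM. ARID2 (11.4 FPKM) and SMARCA2 (11.9 FPKM) stood just above it in the RL-95-2 control library, and ARID2 (10.3 FPKM) and ARID1B (11.4 FPKM) in the RL-95-2 mimic library, where SMARCA2 had 14.6 FPKM. In HEC-1-A, ARID1A was at rank 3 of 10 in the control and at rank 2 in the mimic library. Neighbours in the middle of the order, SMARCB1, SMARCD1 and SMARCE1 in HEC-1-A, lay between 17.5 and 27 FPKM, and the first 2 were closer to each other than the 2 libraries of the line were for SMARCB1.

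**Figure D1:**
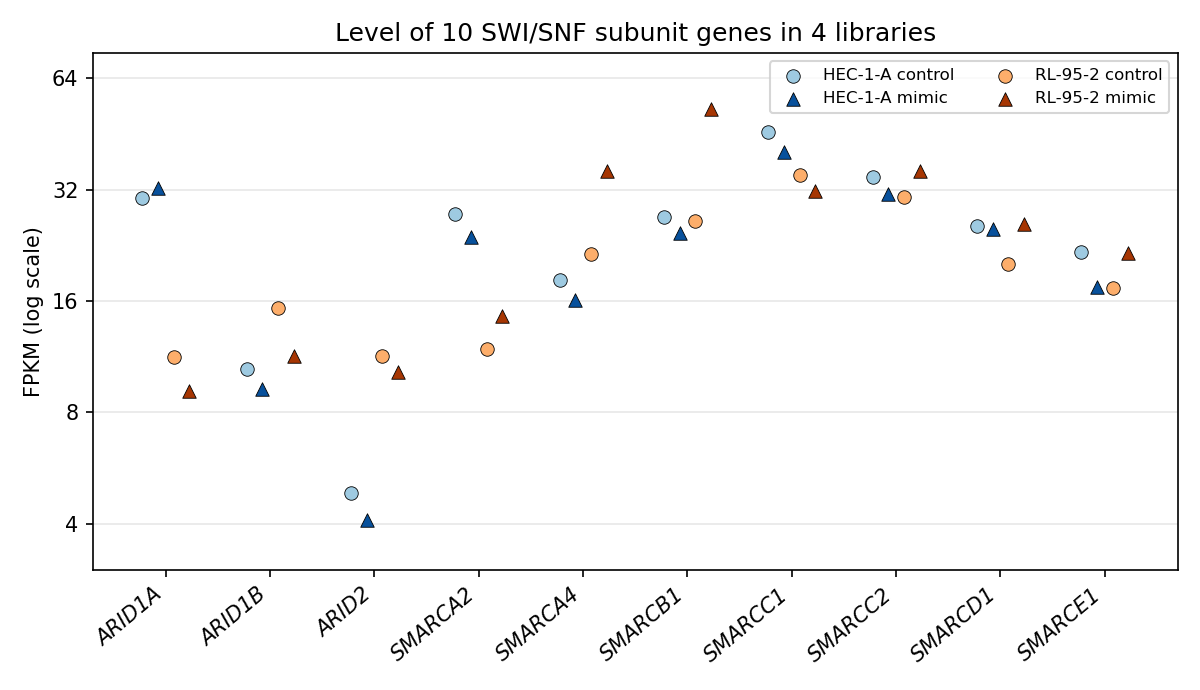
FPKM (log scale) of the 10 subunit genes in the HEC-1-A control, HEC-1-A mimic, RL-95-2 control and RL-95-2 mimic library, 1 point per library. ARID1A and SMARCA2 sit higher in both HEC-1-A libraries, ARID2 in both RL-95-2 libraries, and SMARCA4 and SMARCB1 are highest in the RL-95-2 mimic library.

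The lines differed most in ARID1A. The HEC-1-A control library held 284 CPM and its mimic library 304 CPM, while the RL-95-2 control library held 96.3 CPM and its mimic library 78.9 CPM. Both RL-95-2 libraries lay far under both HEC-1-A libraries. The level was 3.37-fold lower in RL-95-2 (log2 fold change -1.75, SE 0.26, 95% interval -2.37 to -1.13, edgeR quasi-likelihood test with Benjamini-Hochberg adjusted p = 0.0032, 2 libraries per line). ARID1A stayed past the threshold in each of 13 alternative fits, those without 1 library included. The gene lies on chromosome 1 at 26693236 to 26782110 (GRCh38, plus strand).

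ARID2, the DNA-binding subunit of PBAF, went the other way. It stood at 46.3 and 40.6 CPM in the HEC-1-A control and mimic library and at 114 and 93.2 CPM in those of RL-95-2. Again the lines did not overlap. ARID2 was 2.38-fold higher in RL-95-2 (log2 fold change 1.25, SE 0.23, edgeR adjusted p = 0.0073), a call lost without the HEC-1-A mimic library (log2 fold change 1.16, adjusted p = 0.067). ARID1B, the alternative to ARID1A in canonical BAF, had 90.4 and 84.6 CPM in HEC-1-A, control before mimic, against 118 and 94.4 CPM in RL-95-2. The RL-95-2 libraries were both higher, but the difference was smaller than the spread between them (log2 ratio -0.33 in RL-95-2; line log2 fold change 0.28, 95% interval -0.27 to 0.82, edgeR adjusted p = 0.39).

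Of the ATPases, SMARCA2 was lower in RL-95-2. It had 160 and 150 CPM in the HEC-1-A control and mimic library and 77.6 and 79.6 CPM in those of RL-95-2. The 2 libraries of each line were close together and the lines apart, a 1.97-fold difference (log2 fold change -0.98, SE 0.23, edgeR adjusted p = 0.018). The call was lost without either HEC-1-A library (adjusted p = 0.1 without the control and 0.076 without the mimic library), while the log2 fold change stayed at -0.93 and -1.02. SMARCA4 had 112 and 99.2 CPM in HEC-1-A against 135 and 206 CPM in RL-95-2. Its RL-95-2 libraries were both higher but also far from each other, and the difference missed the threshold (log2 fold change 0.66, 95% interval -0.01 to 1.33, edgeR adjusted p = 0.11).

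The core subunits were more alike in the lines, and none passed the threshold. SMARCC1 had 332 and 299 CPM in HEC-1-A against 259 and 214 CPM in RL-95-2 (log2 fold change -0.42, 95% interval -1.02 to 0.18, edgeR adjusted p = 0.23). SMARCB1 had 51.4 and 47.1 CPM in HEC-1-A against 50.6 and 93.2 CPM in RL-95-2. The RL-95-2 control lay between the HEC-1-A libraries, and the RL-95-2 mimic library stood above all others (log2 fold change 0.48, 95% interval -0.24 to 1.21, edgeR adjusted p = 0.26). SMARCD1, which links the complex to transcription factors, had a log2 fold change of -0.18 (95% interval -0.72 to 0.35). SMARCE1, an HMG-box subunit, had -0.08 (-0.66 to 0.51), and SMARCC2, the partner of SMARCC1 in the scaffold, had -0.04 (-0.61 to 0.53). Differences inside these intervals were not detectable with 2 libraries per line.

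In all, 3 of 10 members passed the threshold between the lines, 1 higher in RL-95-2 (ARID2) and 2 lower (ARID1A, SMARCA2). Across all 15957 features tested, 35.1% passed, 18.3% higher in RL-95-2 and 16.7% lower, so the members' share is near that of genes at large. The members' median log2 fold change was -0.06, and that of all features tested was 0.01. The number of members called was 2 without the HEC-1-A control library, 1 without the HEC-1-A mimic library, 6 without the RL-95-2 control and 5 without the RL-95-2 mimic library. The count over all features was 3459 to 10546 in these fits and 5594 with all libraries. These fits held the line alone in the model, so their spread came only from the line that kept 2 libraries. When an RL-95-2 library was left out, the spread within RL-95-2 did not enter, such as 50.6 and 93.2 CPM for SMARCB1. The members added in those fits were SMARCA4, SMARCB1, SMARCC1 and ARID1B. Without the RL-95-2 control and without the RL-95-2 mimic library, the log2 fold change was 0.96 and 0.36 for SMARCA4 and 0.92 and 0.05 for SMARCB1. It was -0.57 and -0.27 for SMARCC1, and 0.11 and 0.45 for ARID1B.

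**Figure D2:**
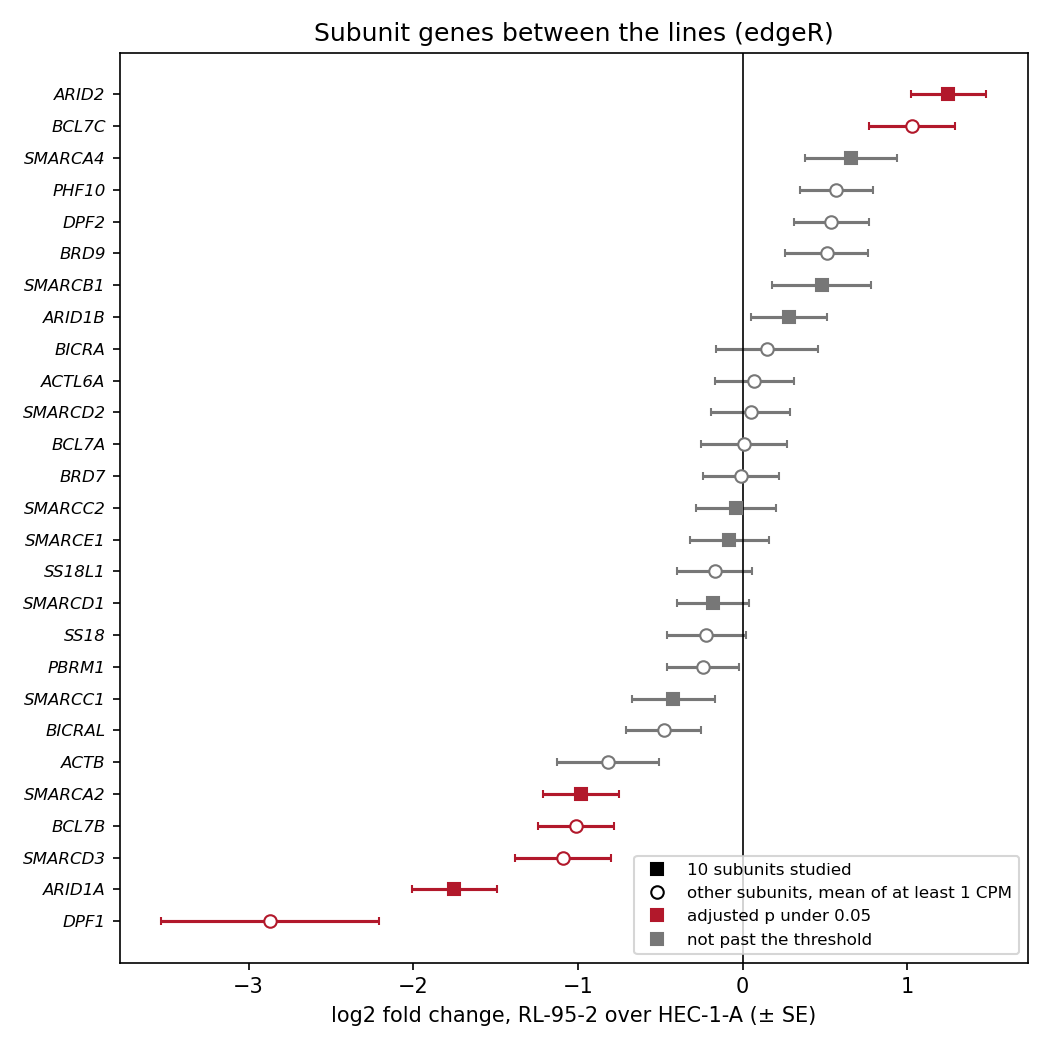
Log2 fold change of RL-95-2 over HEC-1-A with its standard error (edgeR, 2 libraries per line) for the 10 members (squares) and other subunit genes averaging 1 CPM or more (open circles), red where the adjusted p was under 0.05. ARID1A (-1.75) and SMARCA2 (-0.98) lie to the left, ARID2 (1.25) to the right, and most core subunits near 0.

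ARID1A and ARID1B exclude each other in a complex, as do the ATPases, so their balance was read per length from the FPKM. The SMARCC and SMARCD paralogs and ARID2 were read in the same way, with no exclusion assumed. ARID1A exceeded ARID1B in HEC-1-A, with a ratio of 2.9 (control) and 3.49 (mimic). The order was turned in the RL-95-2 cells, at ratios of 0.739 and 0.802. Of the summed FPKM of ARID1A, ARID1B and ARID2, ARID1A made up 66.5% and 70.8% in the HEC-1-A libraries but 29.8% and 29.7% in those of RL-95-2. ARID1B was the largest of the 3 in RL-95-2 (40.3% and 37%), and ARID2 took 29.9% and 33.4% there against 10.6% and 8.95% in HEC-1-A.

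The ATPase pair was turned as well. The ratio of SMARCA4 to SMARCA2 was 0.664 and 0.676 in the HEC-1-A control and mimic library, and 1.8 and 2.47 in those of RL-95-2. Both pairs thus had the other paralog as the more abundant transcript in the other line, and the gap between lines was wider than that between the libraries of a line. SMARCC1 over SMARCC2 was 1.33 and 1.3 in HEC-1-A but 1.15 and 0.884 in RL-95-2, under 1 in the RL-95-2 mimic library alone. SMARCD1 was less abundant than its paralog SMARCD2 in each library (ratios of 0.528 to 0.689). It was more abundant than SMARCD3, a paralog best known from heart and muscle, at 1.97 and 2.15 times its level in HEC-1-A against 4.2 and 3.43 in RL-95-2. These ratios have no test. A ratio of FPKM says nothing of protein.

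**Figure D3:**
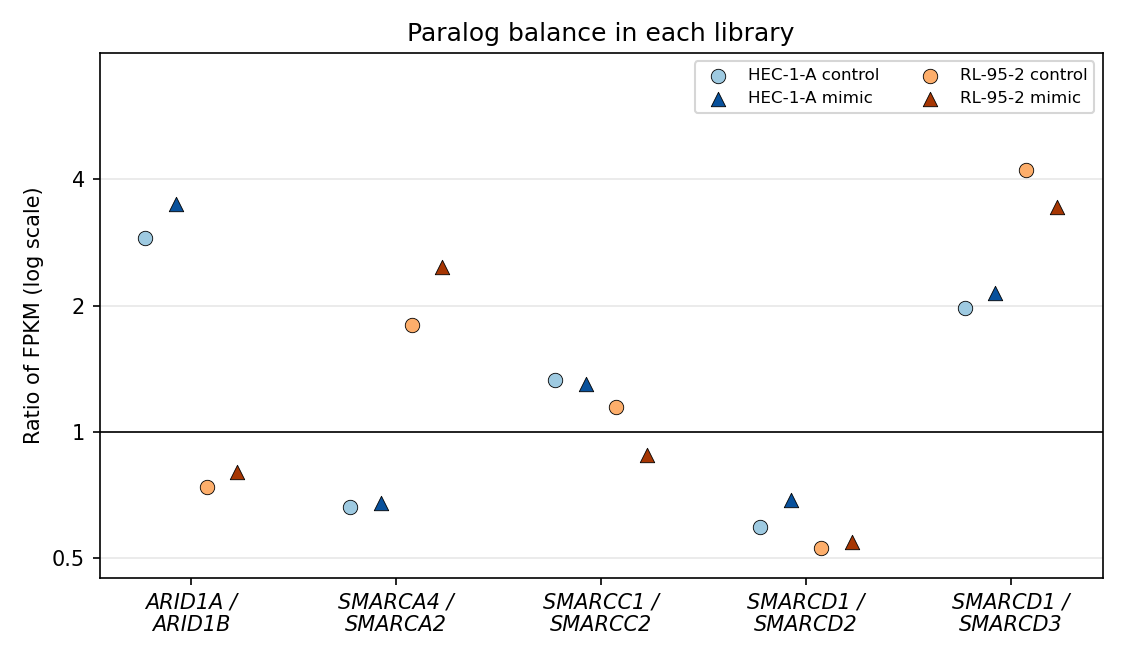
Ratio of FPKM (log scale) of paralogous subunit genes in each library, 1 point per library, with a line at a ratio of 1. ARID1A over ARID1B and SMARCA4 over SMARCA2 lie on opposite sides of 1 in HEC-1-A and RL-95-2.

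Within a line, the mimic was compared with the control as 1 library against 1, with no replicate check. The log2 ratio of scaled CPM is given with a 95% interval that covers counting error only. No member was at least 2-fold apart in HEC-1-A, where 1.11% of 12981 features were, and none in RL-95-2, where 11.2% of 13152 were. Of the features apart in RL-95-2, 41.9% were higher, and 56.1% with scaling by library totals. Of those in HEC-1-A, 78.5% were higher, and 50% on log2(FPKM + 1). Over both lines the edgeR test with the line as a block called 0 members and 0% of all features, with 167 features at an unadjusted p under 0.05. DESeq2 called 2 features and limma on log2(FPKM + 0.1) called 3, none of them a member. The members' adjusted p was 0.9999 throughout. Their log2 fold changes over both lines ran from -0.24 for ARID2 (95% interval -0.77 to 0.3) to 0.38 for SMARCB1 (-0.35 to 1.1). Those intervals do not show that the mimic leaves these genes alone.

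The largest ratios of the mimic to the control were those of SMARCB1 and SMARCA4 in RL-95-2. SMARCB1 went from 1976 counts (50.6 CPM) in the control to 4592 counts (93.2 CPM) in the mimic library, 1.84-fold (log2 ratio 0.88, interval 0.8 to 0.96). In RL-95-2, 14.7% of features had a ratio at least this large in either direction. The 2-fold line was crossed when the libraries were scaled by their totals (1.01), a setting that moved the median of all features to 0.13, and on log2(FPKM + 0.1) (1.01). SMARCA4 went from 5260 counts (135 CPM) to 10171 counts (206 CPM), 1.53-fold (log2 ratio 0.61, interval 0.57 to 0.66), a size reached by 28.1% of features. In HEC-1-A the ratios of both were slightly below 0, at -0.12 for SMARCB1 (-0.22 to -0.03) and -0.17 for SMARCA4 (-0.24 to -0.11).

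The proximal promoters of the pair higher in the RL-95-2 mimic library, and of the ARID1A and SMARCA2 genes that were lower in RL-95-2, are shown for their base composition. They run from 250 bases before to 50 after a RefSeq start (GRCh38.p14), 5′ to 3′ on the gene's strand, with GC boxes (GGGCGG or its complement, either strand) in capitals.
SMARCA4, chr19:10960780-10961079, plus strand: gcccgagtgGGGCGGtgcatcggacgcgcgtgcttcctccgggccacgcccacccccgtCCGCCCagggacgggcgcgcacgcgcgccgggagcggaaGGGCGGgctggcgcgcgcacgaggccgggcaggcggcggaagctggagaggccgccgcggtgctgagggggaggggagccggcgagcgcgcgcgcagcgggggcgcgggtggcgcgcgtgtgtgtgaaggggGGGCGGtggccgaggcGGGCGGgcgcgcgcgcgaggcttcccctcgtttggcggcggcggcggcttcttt
SMARCB1, chr22:23786716-23787015, plus strand: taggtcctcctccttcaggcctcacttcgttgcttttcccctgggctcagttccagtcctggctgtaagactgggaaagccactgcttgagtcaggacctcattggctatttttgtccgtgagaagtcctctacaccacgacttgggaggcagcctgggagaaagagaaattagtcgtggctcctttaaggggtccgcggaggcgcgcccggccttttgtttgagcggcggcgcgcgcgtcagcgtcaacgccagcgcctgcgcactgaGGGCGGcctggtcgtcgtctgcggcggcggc
ARID1A, chr1:26695765-26696064, plus strand: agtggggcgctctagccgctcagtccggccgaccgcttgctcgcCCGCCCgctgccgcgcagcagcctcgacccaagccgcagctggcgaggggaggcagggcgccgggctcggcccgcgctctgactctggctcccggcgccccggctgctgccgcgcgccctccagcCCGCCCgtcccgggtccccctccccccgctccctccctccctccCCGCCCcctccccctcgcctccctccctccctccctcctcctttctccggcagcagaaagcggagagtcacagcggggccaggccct
SMARCA2, chr9:2015097-2015396, plus strand: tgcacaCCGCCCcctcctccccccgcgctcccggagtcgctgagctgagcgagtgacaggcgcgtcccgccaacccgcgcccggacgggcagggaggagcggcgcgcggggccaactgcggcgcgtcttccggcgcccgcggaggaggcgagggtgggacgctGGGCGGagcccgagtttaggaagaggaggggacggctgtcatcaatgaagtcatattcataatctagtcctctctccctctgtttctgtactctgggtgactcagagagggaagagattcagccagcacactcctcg

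RefSeq promoters were matched for 7 of 10 members. Where a gene had several entries (2 for ARID1B, 2 for SMARCA4, 4 for SMARCA2) the first was taken. SMARCA4 held 55 CpG dinucleotides and 5 GC boxes, ARID1A 33 and 3, SMARCA2 30 and 2, and SMARCB1 25 and 1, against a median of 14 CpG over 35116 promoters, of which 45% held at least 1 GC box. These 4 were richer in CpG than the median promoter, as were SMARCD1 (35) and SMARCE1 (25), while the ARID1B window taken held 5 CpG at 37.7% GC. A CCAAT box (CCAAT, either strand) stood in the SMARCB1 window and in 34.6% of promoters, and no TATA box (TATAAA) in any of the 4, against 11.5%. A match is a run of letters and was not tested for binding.

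The remaining members differed by at most 1.25-fold (ARID1B in RL-95-2) between the libraries of a line. In RL-95-2 the 3 ARID genes and SMARCC1 were all lower in the mimic library. ARID1A had a log2 ratio of -0.29 (-0.35 to -0.22), ARID1B -0.33 (-0.39 to -0.27), ARID2 -0.29 (-0.35 to -0.23) and SMARCC1 -0.28 (-0.32 to -0.24). Between 54.4% and 61% of features had ratios at least as large, so these are ordinary sizes in that line. SMARCE1 (0.17), SMARCD1 (0.14), SMARCC2 (0.1) and SMARCA2 (0.04, -0.03 to 0.11) were at or slightly above 0. For SMARCA2 the deposited FPKM gave a larger ratio, 0.27 on log2(FPKM + 1).

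In HEC-1-A, 9 of 10 members were below 0 and ARID1A was above, at 0.1 (0.06 to 0.14). The lowest was SMARCE1, 1.22-fold lower (126 CPM with the control, 103 CPM with the mimic, log2 ratio -0.29, -0.35 to -0.23), a size reached by 20.1% of features in that line. ARID2 (-0.19), SMARCA4 (-0.17) and SMARCC1 (-0.15) followed, and SMARCD1 was nearest to 0 (-0.02). The members' median was -0.12, where that of all features with a mean of at least 1 CPM was 0.02 and 46.4% of them were below 0. In RL-95-2, 4 of 10 members were below 0 with a median of 0.07, against a median of 0 and 49.9% below 0 over all features. ARID1B, ARID2 and SMARCC1 were below 0 in both lines. No member changed its direction within a line under 6 other settings that can move a ratio. The size of the ratios was less stable in RL-95-2. Over all members and settings there, 33 ratios left the counting interval and 27 stayed within it, against 3 and 57 in HEC-1-A. In RL-95-2, ARID1A had -0.16 with total scaling, ARID2 -0.13 on log2(FPKM + 1) and SMARCD1 0.35 on log2(FPKM + 0.1).

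**Figure D4:**
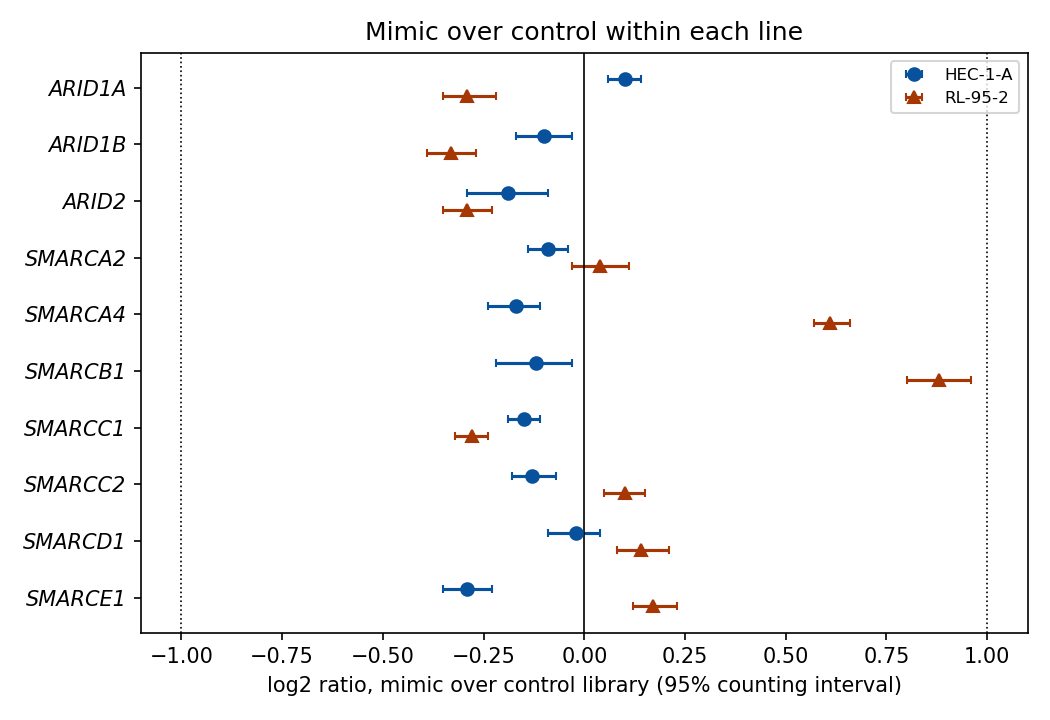
Log2 ratio of the mimic over the control library in HEC-1-A (circles) and RL-95-2 (triangles) for each member, with the 95% counting interval from the 2 counts and dotted lines at 2-fold. SMARCB1 (0.88) and SMARCA4 (0.61) stand out to the right in RL-95-2, and the other ratios lie within 0.33 of 0.

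Length and base composition moved with the ratios in RL-95-2. With features cut into 4 equal bins, the bin of the longest transcripts had a median log2 ratio of -0.11 and the bin of the shortest 0.08. The bin richest in GC had 0.08 and the poorest -0.1. The longest transcripts of ARID1A, ARID1B and ARID2 are 8583 to 10813 bases, and those of SMARCA4 and SMARCB1 hold 61.4% and 59.6% GC. Length and GC were taken from the longest annotated transcript, which need not be the one measured. For SMARCB1 it has 5210 bases, while scaled count over FPKM implies 1870 to 1880 bases. The GC value and the trend-removed ratio of SMARCB1 are therefore uncertain. The ratios of SMARCE1 (8466 bases, 38.4% GC) and SMARCA2 (7061 bases, 42.9% GC) were 0.17 and 0.04. Their implied lengths were shorter, at 5650 to 5720 and 5730 to 6350 bases. The part of length and GC in the members' ratios was not tested. With both trends removed, an alternative chosen after seeing the data, the RL-95-2 log2 ratio was 0.84 for SMARCB1, 0.58 for SMARCA4, -0.25 for ARID1A, -0.24 for ARID1B and -0.13 for ARID2. It was -0.2 for SMARCC1, 0.08 for SMARCD1 and 0.06 for SMARCC2. For SMARCE1 and SMARCA2 it became larger, at 0.34 and 0.15.

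Neighbouring genes share exon bases with some members in the GENCODE annotation of GRCh38, and no source used here states that the counting used strand. SMARCB1 (chromosome 22, 23786931 to 23838008) shares 17.69% of its exon bases with DERL3 on the opposite strand, but DERL3 had at most 2 counts in any library. SMARCC2 (chromosome 12, 56162983 to 56189567) shares 6.01% with MYL6, a myosin light chain gene on the opposite strand at 175 to 329 CPM, whose log2 ratio in RL-95-2 was 0.83. The SMARCC2 values are therefore uncertain. SMARCE1 shares 19.79% with AC073508.2, a gene model on the same strand that is not a row of the table, and has 7 pseudogenes by name, so its values are uncertain too. For SMARCA4 (chromosome 19, 10960825 to 11079426) the overlap was 0.63% of exon bases, with a small noncoding RNA.

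The other subunits of the complex were read from a list of 21 genes, of which 20 were tested between the lines. Of these, 3 were higher in RL-95-2 and 3 lower, and 14 did not pass, a share near the 35.1% of all features; the median log2 fold change was 0. BCL7C, a small accessory subunit, was higher, at 22 and 23.6 CPM in HEC-1-A against 36.2 and 59.4 CPM in RL-95-2 (log2 fold change 1.03, edgeR adjusted p = 0.025). Its paralog BCL7B was lower, at 72.9 and 81.5 CPM in HEC-1-A against 38.4 CPM in both RL-95-2 libraries (-1.01, adjusted p = 0.016). SMARCD3 was lower too (-1.09, adjusted p = 0.028). The number called was 2 without either HEC-1-A library, 13 without the RL-95-2 control, 14 without the RL-95-2 mimic library and 3 with at least 1 CPM in all 4 libraries.

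Of the subunits known from neurons and lymphocytes, DPF1, BCL11A, BCL11B, DPF3 and ACTL6B were scarce. SS18L1, also known from neurons, was not, at 46.9 and 45 CPM in HEC-1-A and 38.4 and 43.6 CPM in RL-95-2. DPF1, the neuronal form of a double PHD finger subunit, had 4.32 and 6.32 CPM in HEC-1-A against 0.256 and 1.64 CPM in RL-95-2 (log2 fold change -2.87, edgeR adjusted p = 0.018). BCL11A had 0 counts in both HEC-1-A libraries and 28 and 77 counts in RL-95-2, at least 14.5-fold higher against a floor of 3 counts per library. BCL11B had 2 and 0 counts in HEC-1-A against 32 and 100 in RL-95-2, a scaled ratio of 58.2 (95% counting interval 15.8 to 486). DPF3 had 8 to 54 counts per library (log2 fold change -2.2, adjusted p = 0.078), and ACTL6B, the neuronal actin-like subunit, had 0 counts in all 4.

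Between mimic and control, 0 of 17 measured other subunits were at least 2-fold apart in HEC-1-A; in RL-95-2, 3 of 18 were at least 2-fold apart, all 3 higher, against 11.2% of all features apart and 4.71% higher. ACTB, beta-actin, which is also a subunit, had a log2 ratio of 1.05 in RL-95-2 (1270 CPM with the control, 2630 CPM with the mimic) and 0.38 in HEC-1-A, with reads that its processed pseudogenes may share. BCL11B (1.26) and BCL11A (1.07) rest on at most 100 counts. Lowest in RL-95-2 were BCL7A (-0.78, 85.8 and 50.1 CPM) and BRD7, the bromodomain subunit of PBAF (-0.27). In HEC-1-A the ends were DPF1 (0.55) and ACTB above 0, and BICRA (-0.26) and BRD9 (-0.23), both of noncanonical BAF, below. PBRM1, the PBAF subunit that binds acetylated histones, had log2 ratios of 0.3 (HEC-1-A) and 0.28 (RL-95-2), though the deposited FPKM gave -0.02 in HEC-1-A.

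Polycomb repressive complex 2 (PRC2), which places the repressive methyl mark that SWI/SNF counters, was read from 11 genes, of which 2 passed between the lines, below the 35.1% of all features. JARID2, a PRC2 cofactor, was 2.12-fold higher in RL-95-2 (19.1 and 21.5 CPM against 49.6 and 37.1 CPM, edgeR adjusted p = 0.021). PHF19 was 2.39-fold lower (80.4 and 87.4 CPM against 25.6 and 47.9 CPM, adjusted p = 0.015). The other 9 did not pass, among them the catalytic EZH2 (log2 fold change 0.22, adjusted p = 0.51), RBBP4 (0.45) and RBBP7 (-0.29). No PRC2 gene was 2-fold apart between mimic and control in either line. Of all features, 11.2% were that far apart in RL-95-2 but only 1.11% in HEC-1-A. A list of 11 genes is too short to tell 0 from these shares. In RL-95-2 the ends were PHF19 (0.9) and EZH2 (0.45) against PHF1 (-0.67) and EZH1 (-0.62), and in HEC-1-A JARID2 (0.17), MTF2 and RBBP7 (both 0.15) against RBBP4 (-0.22) and SUZ12 (-0.07).

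Of 11 genes reported in other systems to respond to loss of a SWI/SNF subunit, 1 was higher and 2 lower in RL-95-2, not above the 35.1% of all features called. CD44, a cell adhesion receptor, was 2.35-fold higher (125 and 147 CPM in HEC-1-A against 330 and 308 CPM in RL-95-2, edgeR adjusted p = 0.012). CCND1, cyclin D1, was 2.51-fold lower (adjusted p = 0.012) and MYC 2.32-fold lower (adjusted p = 0.045). CDKN2A, a cell cycle inhibitor gene, had a log2 fold change of 0.85 and did not pass (adjusted p = 0.082). Whether any of these differences follows the ARID1A level was not tested.

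Between mimic and control in RL-95-2, 4 of these 11 genes were at least 2-fold lower, as were 6.52% of all features. The list was chosen with earlier results of these data known, so the 2 shares cannot be weighed against each other. CDKN1A, the p21 cell cycle inhibitor, went from 113 CPM to 18.7 CPM (log2 ratio -2.59). SLC7A11, a cystine transporter gene, had 476 and 110 CPM (-2.12), GLI1, a Hedgehog pathway factor, had 81 and 30 counts (-1.69), and MYC had -1.32. TERT, the telomerase reverse transcriptase (0.97), and CDKN2A (0.85) were at the upper end. In HEC-1-A, GLI1 was the single gene of the 11 at least 2-fold apart, where 1.11% of all features were (31 and 92 counts, log2 ratio 1.1), followed by CDKN1A (0.84), with TERT (-0.32) and CDKN2A (-0.23) lowest.

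Among 11439 features with a mean of at least 5 CPM, those whose profile over the 4 libraries was nearest to that of ARID1A were C19orf33 (distance 0.056 on the log2 scale), FMNL1 (0.064) and PNPLA4 (0.066). C19orf33, for instance, stood at 56.4 and 58.4 CPM in HEC-1-A against 18.5 and 14.8 CPM in RL-95-2. Nearest to SMARCA2 were SIRT5 (0.03), RARS2 (0.039) and RPL24 (0.042). These profiles hold 4 points, and 2 libraries of a line share that line.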

How the data were processed

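Poly(A) RNA of 4 libraries was sequenced as paired reads. Gene tables were deposited by the authors as raw counts and as FPKM. CASAVA, HISAT2 and GRCh38 (hg38) are named in the submitters' processing notes; which counter, annotation and strandedness were used is not given in the sources used here. Groups came from the sample titles. The labels name no separate cultures, and no group was replicated. With line and transfection both in the model, a gene's own spread was how differently the lines moved from control to mimic. That difference may be technical, and it cannot be told apart from spread between replicate libraries.

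The main test on these counts was that of edgeR 4.0.16 in R 4.3.3: TMM scaling, filterByExpr by line, a quasi-likelihood F test with line and transfection in the model (1 residual degree of freedom, 5.44 prior), and Benjamini-Hochberg adjustment over all features at 0.05. The line named in the titles pairs mimic and control. The control and mimic library of a line stand in for its replicates, once a shift from control to mimic shared by both lines is taken out. Intervals of fold changes are the estimate and its SE times a t quantile. CPM is scaled by TMM. Within a line, the ratio used a prior count of 2, an exact conditional binomial 95% interval, and a minimum mean of 1 CPM. Levels of different genes were compared only in FPKM. Alternatives were RLE and total scaling, DESeq2 1.42.0, limma 3.58.1 (voom, and FPKM with a pseudocount of 1 or 0.1), other filters, a prior count of 0.5, no block, and libraries left out. A fit without 1 library had no transfection term, so its spread came only from the line that kept 2 libraries. In simulated data at these depths the edgeR test recovered 11.9% of genes 2-fold apart between lines and 86.6% of those 4-fold apart. Between mimic and control it recovered 23.9% and 86.6%. The line simulation changed only 67 genes by 2-fold, 67 by 4-fold and 66 by 8-fold, of 15632. In the data, 35.1% of features passed between the lines. The adjusted threshold was thus stricter in the simulation, and its line shares are not the power of the line comparison.

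All members, the 2 highest and 2 lowest genes of each list per comparison, and the 3 profiles nearest to ARID1A and SMARCA2 were named, leaving out locus numbers and symbols turned into dates. The members and lists were chosen with earlier results of these data known. Length and GC trend removal was an alternative added after seeing the data. PBRM1, BCL7B, BCL7C, SMARCD3, ACTL6B, SS18L1, MYC in RL-95-2, SMARCA5, CHD3, CHD9 and the EZH2 line difference were named after their values were seen.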

Additional observations from a re-analysis of the deposited data

Results flagged for a closer look

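The log2 ratio of mimic over control had opposite signs in the 2 lines, with both counting intervals off 0, for 5 of 10 members. The same held for 25.9% of 11914 features averaging 1 CPM or more in each line, and for 34.3% of the 4319 of them counted at least as deeply as the lowest member in every library. The difference between the lines (RL-95-2 minus HEC-1-A) was 1 for SMARCB1, 0.79 for SMARCA4, 0.47 for SMARCE1, 0.23 for SMARCC2 and -0.39 for ARID1A. Each line had 1 library per transfection, so the difference was not tested.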

How the results depend on the processing

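All 13 alternative fits between the lines kept ARID1A past the threshold, and ARID2 and SMARCA2 kept their direction in each. The count of all features called between lines was 3313 with at least 1 CPM in all libraries and 3459 to 10546 with 1 library left out, where members called numbered 1 to 6 and other subunits called 2 to 14 (3 with at least 1 CPM in all libraries). With 1 library left out, the model held the line alone, and its spread came only from the line that kept 2 libraries. Without an RL-95-2 library that line was HEC-1-A, where 1.11% of features were at least 2-fold apart, against 11.2% in RL-95-2. The part of this in the higher counts was not tested. Between mimic and control over both lines, DESeq2 called 2 features and limma on log2(FPKM + 0.1) called 3, and the fit with no replicate block called 0, as did the blocked fit.

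The share of features at least 2-fold apart in HEC-1-A was 0.2% on log2(FPKM + 1) and 0.265% with a mean of at least 5 CPM, and in RL-95-2 5.53% on log2(FPKM + 1). In RL-95-2 the share higher among features apart was 41.9%, against 56.1% with total scaling and 57.2% on log2(FPKM + 0.1), and in HEC-1-A 78.5%, against 50% on log2(FPKM + 1) and 62.1% with a mean of at least 5 CPM. The number of members apart in RL-95-2 was 1 with total scaling and 1 on log2(FPKM + 0.1), SMARCB1 in both.

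Some values that did not pass the threshold turned sign. Between lines SMARCC2 had 0.02 with total scaling, 0.01 on both FPKM scales, and -0.1 to 0.02 without 1 library, and SMARCE1 -0.22 to 0.07. Over both lines, ARID1A had 0.01 with no replicate block and -0.29 to 0.1 in single lines, SMARCA2 0.03 with total scaling, 0.03 and 0.04 on the FPKM scales and -0.09 to 0.04 in single lines, and SMARCC2 0.04 in those 3 settings and -0.13 to 0.1. SMARCE1 had 0 on both FPKM scales and -0.29 to 0.17 in single lines, SMARCA4 -0.17 to 0.61, SMARCB1 -0.12 to 0.88 and SMARCD1 -0.02 to 0.14. None of these passed the threshold. Counting error is given by each ratio's interval; the spread between replicate cultures was not measured.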

Other observations

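Of 18 genes of other families of ATP-dependent remodellers, 3 were higher and 3 lower in RL-95-2, a share near the 35.1% of all features called. CHD1 (log2 fold change 1.5, edgeR adjusted p = 0.0052), SRCAP (1.44, adjusted p = 0.0073) and CHD3 (1.39, adjusted p = 0.0077) were higher. SMARCA1, an ISWI ATPase, was 4.55-fold lower (adjusted p = 0.00091), and BPTF (-1.17, adjusted p = 0.011) and CHD9 (-0.76, adjusted p = 0.041) were lower. SMARCA5, the paralog of SMARCA1, had -0.02. No gene of this list was 2-fold apart between mimic and control in either line. The shares of all features were 11.2% (RL-95-2) and 1.11% (HEC-1-A), and 18 genes are too few to tell 0 from them. The ends were SRCAP (0.52) and CHD8 (0.39) against CHD2 (-0.67) and CHD7 (-0.6) in RL-95-2. Those of HEC-1-A were ATRX (0.22) and BAZ1A (0.2) against CHD3 (-0.14) and EP400 (-0.12).

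The length implied by a member's count and FPKM (scaled count over FPKM, in bases) was not the same in each library. For ARID1A it was 8300 in the RL-95-2 control and 9150 to 9220 in the other libraries, and for ARID1B 7540 against 8510 to 8870. It varied by 10.9% for SMARCA2 and by 0.394% for SMARCB1. Transcript isoforms were not analysed here.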
